A study of Mus musculus with 9 samples.

Results

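Serpins are a family of protease inhibitors and hormone carriers, many of them made by the liver and secreted into plasma. The serpin genes described here were chosen from a table of 24532 mouse genes by symbol and level alone. A gene was taken where its symbol was Serpin followed by a clade letter from a to i and a number, and where its mean read count over 9 liver libraries was at least 10. Of 64 serpin genes in the table, 38 met the rule and 37 of them are described, 26 lay below it, and 12 of those 26 were at 0 in every library. Just inside the limit lay Serpina3b, with a mean count of 11.6, and Serpinb9f, with 12. Just outside it lay Serpinb10, with a mean of 9.67 and a range of 3 to 30, and Serpinb9e, with a mean of 6.00 and a range of 0 to 18.

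All 9 libraries came from livers of wild-type C57BL/6 mice. Every animal received thioacetamide (TAA), a hepatotoxin that causes fibrosis, by intraperitoneal injection at a rising dose, 2 times a week for 10 weeks. The TAA group received normal saline (libraries 12, 13 and 14). The 2 treated groups also received recombinant human cytoglobin (rhCYGB), an oxygen-binding globin, at 2 mg/kg into the tail vein 2 times a week. Treatment ran over the last 2 weeks in libraries 17, 18 and 19, and over the last 5 weeks in libraries 23, 27 and 28. Animals were killed 2 days after the final rhCYGB dose. No liver without TAA was analysed here, so the comparisons are between injured livers: each treated group with the TAA group, and the 2 treated groups with each other. Whether every library is a separate animal is not in the labels, so a p-value here reflects library-to-library spread, which may be technical. Both treated groups were set against the same 3 TAA libraries.

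An inhibitory serpin exposes a reactive centre loop that a protease cuts as it would a substrate; the cut loop then inserts into the body of the serpin and the protease stays trapped on it. Plasma serpins made by hepatocytes restrain leukocyte elastase, thrombin, plasmin and the first complement proteases. Other members do not inhibit proteases: they carry thyroid hormone or corticosteroid hormones, or act as a chaperone for collagen inside the cell. In fibrotic liver the collagen chaperone is known for its tie to matrix build-up.

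The mouse has several antitrypsin genes where humans have 1, and the mouse copies differ most in the reactive centre loop. The stretch that encodes the loop is shown for the 5 copies, since the encoded loop is what meets the protease, and since reads are assigned to a copy at such differences. It covers coding bases 1101 to 1160 of 1242, read from GENCODE M21 transcripts on GRCm38.p6 (mm10). Capitals mark the 18 positions in this window at which the copies are not all alike, out of 86 such positions in the whole coding sequence.
Serpina1a: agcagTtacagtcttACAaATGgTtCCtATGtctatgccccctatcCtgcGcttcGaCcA
Serpina1b: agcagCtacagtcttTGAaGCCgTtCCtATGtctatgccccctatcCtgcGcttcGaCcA
Serpina1c: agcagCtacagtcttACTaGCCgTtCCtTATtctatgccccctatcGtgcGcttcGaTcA
Serpina1d: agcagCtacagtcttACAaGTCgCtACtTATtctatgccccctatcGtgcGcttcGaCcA
Serpina1e: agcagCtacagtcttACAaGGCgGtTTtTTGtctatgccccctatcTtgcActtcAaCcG

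Over the whole coding sequence the 5 copies were 96.3% to 98.5% identical, and the closest pair was Serpina1a and Serpina1c. Of all 100-base windows of the transcript, 39.0% occurred in no other gene for Serpina1a, 41.5% for Serpina1c, 70.7% for Serpina1d, 73.6% for Serpina1b and 81.8% for Serpina1e. By these windows, a minority of the sequence of the first 2 copies was their own. How reads shared by copies were counted is not known, so the split of reads among the copies is uncertain. The transcripts scored were not always as long as those counted. For Serpina1a the scored one had 1360 bases and the main counted one 1724. A transcript was matched to 35 of the 37 members. Of these, 28 were over 90% unique and 21 were unique in every window. Besides the antitrypsins, the low values were 58.1% for Serpina11 and 47.7% for Serpinb9f.

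RefSeq promoter sequences on GRCm38.p6 were at hand for 28 of the 37 members. The entries not held were those of Serpina10, Serpina3h, Serpina3k, Serpina3m, Serpina4-ps1, Serpina6, Serpina9, Serpinb1a and Serping1. The half-site of HNF1, a hepatocyte transcription factor, was searched as GTTAAT on both strands over the 250 bases before each start. It was found in 8 of the 28 members (28.6%) and in 2023 of 27025 genes (7.49%). The 8 were the 5 antitrypsins, Serpina7, Serpina3c and Serpinb8. The antitrypsin windows around the match were alike at all but 1 of 56 positions, so these 5 promoters count as little more than 1 sequence. A window is shown for 2 antitrypsins, which hold that single difference at their first base, and for Serpina7, the member with the largest fold change; capitals mark the match. They lie on the minus strand at chr12:103863625-103863680, chr12:103773634-103773689 and chrX:139085278-139085333.
Serpina1a: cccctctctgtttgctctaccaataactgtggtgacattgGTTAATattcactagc
Serpina1d: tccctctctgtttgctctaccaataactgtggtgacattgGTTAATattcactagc
Serpina7: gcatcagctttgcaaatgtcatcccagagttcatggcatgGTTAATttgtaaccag

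The family took a steady part of the unscaled counts of each library. Its part of the scaled counts used in the comparisons below was not computed. Total counts ran from 55655727 to 87289945, and serpin reads made up 3.24% to 4.03% of them. Antitrypsins held 63.2% to 71.3% of the serpin reads. On the FPKM scale (fragments per kilobase of transcript, corrected for library size), the leading 6 genes held 86.2% to 88.8% of the family's signal. They were Serpina1b (mean 5484 FPKM over 9 libraries), Serpina1c (4529.5), Serpina3k (3791), Serpina1a (3180.3), Serpina1d (2020.3) and Serpina1e (1704). Neighbours in that order overlapped in range over libraries, apart from Serpina1a and Serpina1d, whose ranges were 2540 to 3546 and 1733 to 2364 FPKM.

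Next by mean came antithrombin, Serpinc1, at 889 FPKM (809.7 to 1001). Its range overlapped that of Serpina1e (908 to 3346) and stood clear of C1 inhibitor, Serping1, at 410.1 (332 to 476). Pigment epithelium-derived factor Serpinf1 (316), the plasmin inhibitor Serpinf2 (296) and heparin cofactor II, Serpind1 (245), followed with overlapping ranges. Serpinh1, the collagen chaperone, was much lower per length, at a mean of 21.1 FPKM, and Serpine2 averaged 5.25. At the foot lay Serpina3c at 0.117, Serpinb9f at 0.0980 and Serpina3b at 0.0844 FPKM.

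**Figure D1:**
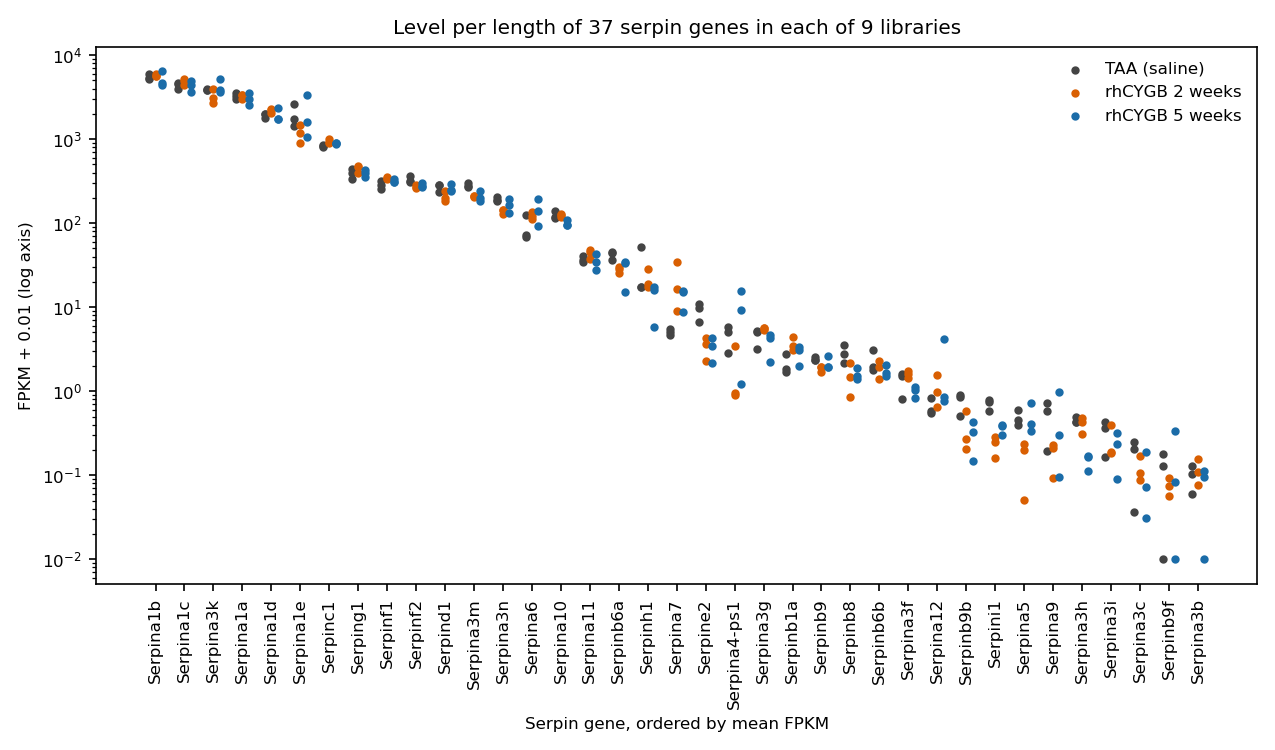
FPKM plus 0.01 on a log axis for 37 serpin genes, ordered by mean, with 1 point per library and colours for the 3 groups. The leading 6 genes lie at or above 908 FPKM in every library, while Serpina3b ends the order at a mean of 0.0844 FPKM.

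A gene was called changed where edgeR's quasi-likelihood test, adjusted over all 14731 genes tested by the Benjamini-Hochberg method, gave p under 0.05. All 37 members passed the filter on low counts. After 2 weeks of rhCYGB, 4 of 37 members were called (10.8%) beside 3.31% of all genes: Serpina7, Serpinc1 and Serpinf1 rose, and Serpini1 fell. Of all genes, 1.98% rose and 1.34% fell. Unadjusted, 13 of the 37 had p under 0.05, beside 23.4% of all genes. The median log2 change over members was 0.06 beside -0.03 over all genes. After 5 weeks none of the 37 was called by edgeR, beside 1.29% of all genes (0.686% up and 0.604% down), and 10 had an unadjusted p under 0.05, beside 19.2% of all genes. The medians were 0.09 and 0.01. Between the 2 treated groups none of them was called, beside 0.0204% of all genes. Unadjusted, 6 of the 37 had p under 0.05 there, a smaller share than the 23.2% of all genes.

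DESeq2, a second count test, called more genes in every comparison. At 2 weeks it called 6 members beside 11.6% of all genes: the 4 that edgeR called, with Serpinb1a higher and Serpine2 lower. At 5 weeks it called 6 of the 34 members it gave an adjusted p, beside 8.4% of all genes, with Serpina6, Serpina7, Serpina12 and Serpinc1 higher and Serpina3h and Serpine2 lower. Between the treated groups it called 1 member, Serpina3h, beside 5.93% of all genes.

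Scaling bore on direction. Of the genes called at 2 weeks 59.6% were higher, but the share was 6.39% on library totals, 7.31% on FPKM and 45.1% after upper quartile scaling. At 5 weeks it was 53.2%, and then 7.54%, 6.89% and 41.6% in the same order. With library totals the members called at 2 weeks were Serpina7, higher, and Serpine2 and Serpini1, lower, beside 11.7% of all genes. Most single libraries bore on the counts as well. Without TAA library 12, 13 or 14 or treated library 17, 18 or 28, none of the 37 was called at 2 weeks, and without library 13, 14, 17 or 18 only 1 to 5 of all genes were. Without library 19, 1 member and 368 of all genes were called; without library 23 or 27 it was 6 members each, and 1095 and 888 of all genes. At 5 weeks 0 to 5 of all genes were called without any 1 library other than number 27.

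Groups were also compared by whether their 3 libraries lay wholly apart in counts scaled to library size by the trimmed mean of M values (TMM). At 2 weeks 12 members lay above TAA and 4 below, or 43.2% beside 33.7% of all genes (17.3% above and 16.3% below). At 5 weeks 5 lay above and 5 below, or 27% beside 25% of all genes (11.6% above and 13.4% below). Between 5 and 2 weeks 2 lay above and 7 below, or 24.3% beside 21.1% of all genes (10.9% above and 10.2% below). The shares at 5 weeks and between the treated groups are near those of all genes. Scaling bears on these counts, and the shares were not computed on FPKM. On FPKM, Serping1 overlapped TAA at 2 weeks (400.4 to 476 against 332 to 441). Serpina3n then lay wholly below TAA (127 to 145 against 183 to 204), and Serpina7 stayed wholly above (8.91 to 34.7 against 4.64 to 5.48).

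**Figure D2:**
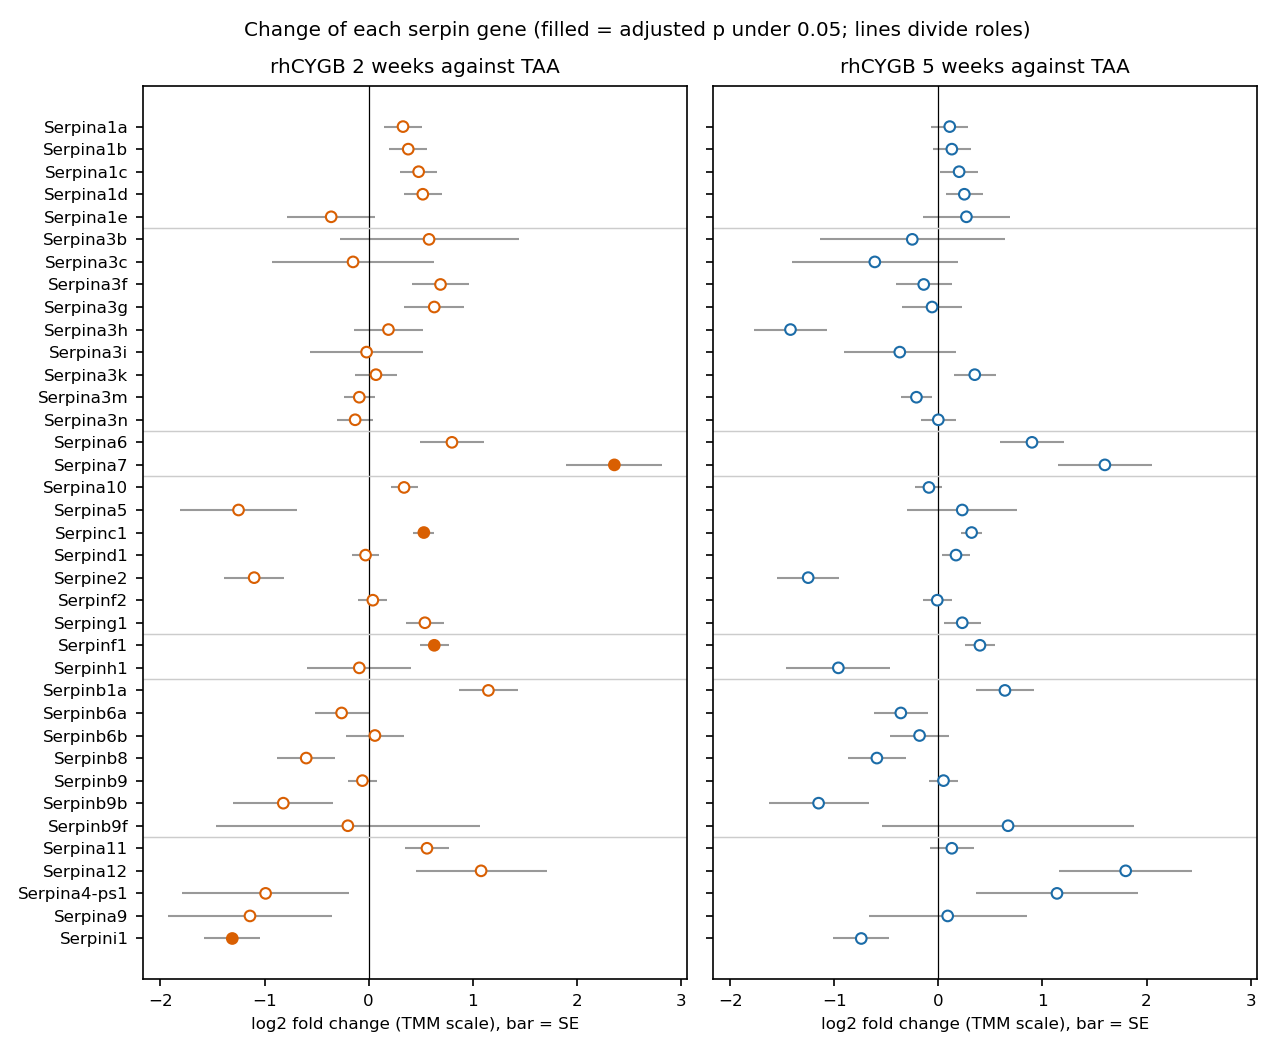
Log2 fold change with its standard error for each serpin gene, at 2 weeks (left) and 5 weeks (right) against the same TAA libraries; filled points have an adjusted p under 0.05 and lines divide the roles. At 2 weeks the filled points are Serpina7, Serpinc1 and Serpinf1 on the right and Serpini1 on the left; at 5 weeks there is none.

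Serpine2 encodes protease nexin 1 (chr1:79794321-79858665), a cell-surface inhibitor of thrombin and of the plasminogen activators. Its levels in CPM (counts scaled to library size by the trimmed mean of M values, TMM) were 20.4, 11.7 and 18.1 in TAA libraries 12, 13 and 14. They were 5.74, 9.82 and 7.81 in the 2-week libraries 17, 18 and 19, and 4.61, 7.94 and 8.60 in the 5-week libraries 23, 27 and 28. No treated library reached a TAA library, and the treated groups overlapped each other. The log2 changes, -1.10 ± 0.29 and -1.25 ± 0.30, missed the threshold (edgeR adjusted p = 0.0690 and 0.0696). Both kept their sign under all 17 alternative settings. The 2-week value passed in 5 of them and the 5-week value in 4, among them DESeq2 at both times (adjusted p = 0.00608 and 0.00186). In whole liver, fewer cells of a type and less RNA per cell cannot be told apart.

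Serpini1 encodes neuroserpin (chr3:75557533-75642523), an inhibitor of tissue plasminogen activator best known from neurons. It was a low gene here, at 2.23, 2.00 and 1.61 CPM with TAA alone, 0.579, 0.849 and 0.913 at 2 weeks, and 0.957, 1.37 and 1.16 at 5 weeks. The 3 groups did not overlap, with the 5-week group between the others. It fell by 1.31 ± 0.27 on the log2 scale at 2 weeks (edgeR adjusted p = 0.0388). The 5-week value was -0.74 ± 0.27 (adjusted p = 0.177), and the treated groups did not differ by the test (adjusted p = 0.236). The 2-week call was lost in 7 of 9 refits that left out 1 library.

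The proteases these inhibitors meet were read from a list of 7 plasmin-system genes. At 2 weeks 1 of the 7 rose and 2 fell, beside 1.98% and 1.34% of all genes. At 5 weeks none rose and 1 fell, beside 0.686% and 0.604%. Unadjusted, 6 and 5 of the 7 had p under 0.05 by edgeR, beside 23.4% and 19.2% of all genes. The list medians were 0.10 and 0.17. Tissue plasminogen activator, Plat, stood at 20.5, 21.8 and 19.4 CPM with TAA alone, 5.54, 9.72 and 7.98 at 2 weeks, and 4.35, 8.33 and 7.92 at 5 weeks. It fell at both times, with log2 changes of -1.41 ± 0.26 (edgeR adjusted p = 0.0295) and -1.58 ± 0.27 (adjusted p = 0.0379). Urokinase, Plau, went from 3.45, 4.30 and 3.98 CPM to 0.847, 1.44 and 1.15 at 2 weeks, a fall of 1.76 ± 0.25 on the log2 scale (edgeR adjusted p = 0.0235). At 5 weeks Plau stood at 2.1, 1.49 and 2.1 CPM (log2 change -1.04 ± 0.24, adjusted p = 0.0669). Plasminogen itself, Plg, the substrate of both activators, ranged from 1461 to 1915 CPM with overlapping groups. Tmprss6, a hepatocyte membrane protease better known from iron control, was the member of the list that rose at 2 weeks (0.53 ± 0.11, edgeR adjusted p = 0.0392).

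Markers of stellate cells and myofibroblasts, the matrix-making cells of liver, were lower in sum in the treated groups. The summed level of all 10 markers was 1328 to 1997 CPM with TAA alone. It was 499 to 895 CPM at 2 weeks and 371 to 807 at 5 weeks. None of the 10 was at 0. Against TAA, 2 of 10 were called lower at each time, beside 1.34% and 0.604% of all genes. The 10 did not move alike. At 2 and 5 weeks the log2 changes were -2.15 and -2.93 for Acta2, -0.42 and -0.16 for Lrat, and -0.26 and 0.14 for Reln. The part of these cells in the values of Serpine2 and Serpini1 was not tested.

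**Figure D3:**
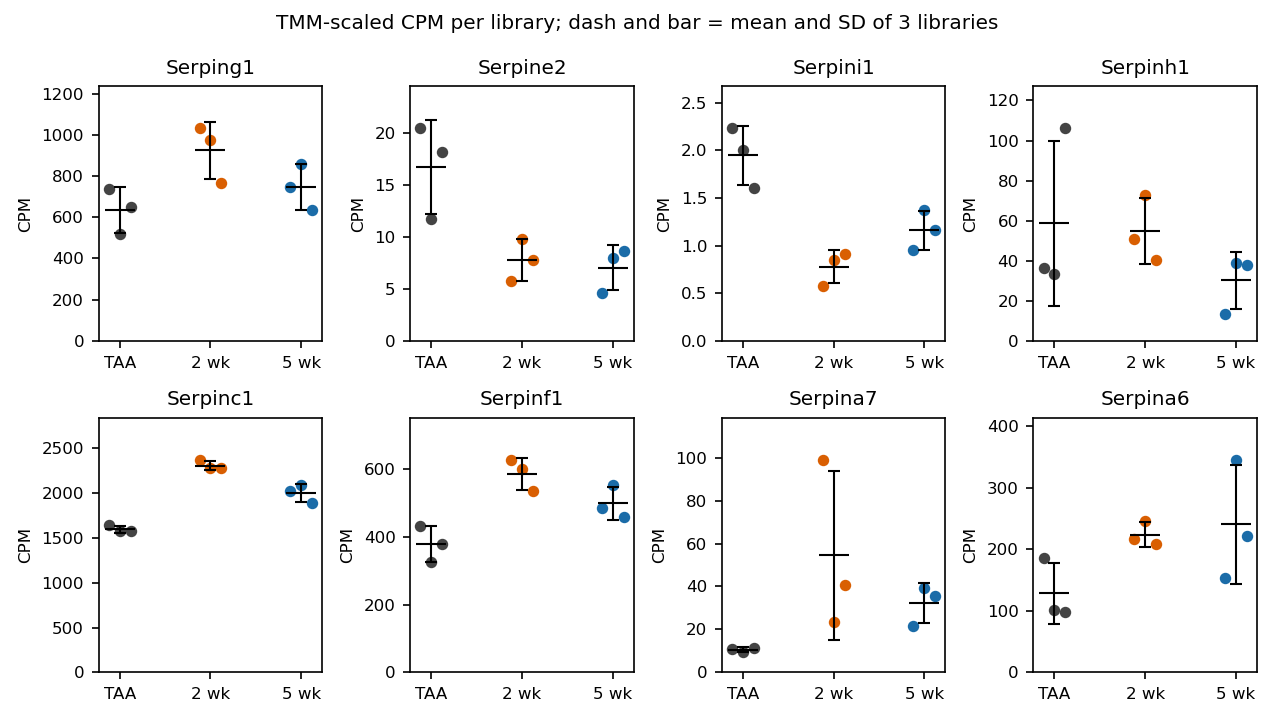
TMM-scaled CPM of 8 serpin genes in each library, with the mean and SD of 3 libraries per group; each panel starts at 0 with its own scale. Serpine2 is 11.7 to 20.4 CPM with TAA alone and 4.61 to 9.82 in the treated libraries, whereas Serpinh1 is high in 1 TAA library only, at 106 CPM.

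Serpinh1 encodes HSP47 (chr7:99345375-99353239), the chaperone that binds procollagen in the endoplasmic reticulum. It was called in no comparison. Its TAA libraries were far apart, at 36.4, 33.5 and 106 CPM, and the 2-week libraries at 51.1, 72.6 and 40.6 CPM lay within that range. At 5 weeks it stood at 13.6, 39.1 and 37.8 CPM, with a log2 change of -0.96 ± 0.50 (edgeR adjusted p = 0.332). Without TAA library 14, the 106 CPM one, that value was -0.22, and the 2-week value went from -0.09 to 0.64. Of the 7 collagen chains listed as its clients, 4 fell at each time, beside 1.34% and 0.604% of all genes, and none rose. Unadjusted, all 7 had p under 0.05 by edgeR at each time, beside 23.4% and 19.2% of all genes. The list medians were -1.71 and -1.73. Col1a2, an alpha chain of type I collagen, fell from 272 to 429.8 CPM with TAA alone to 63.5 to 161 at 2 weeks (log2 change -1.91 ± 0.42, edgeR adjusted p = 0.0440) and 46.8 to 116 at 5 weeks (-2.1 ± 0.42, adjusted p = 0.0495). Whether Serpinh1 and a collagen changed by different amounts was not tested.

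Serpinh1 had 4 transcripts in the table, and their makeup varied by group. By the deposited transcript FPKM, NM_001111044 held 70.9%, 73.7% and 58.5% of the gene's signal in the TAA libraries. It held 99.9%, 87.9% and 80.6% at 2 weeks, and 91.6%, 99.6% and 91.3% at 5 weeks. Every treated library was above every TAA library. This share was picked after its values were seen, depends on how reads were divided among the overlapping models, and was not tested.

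Serpinf1 encodes pigment epithelium-derived factor (chr11:75410029-75422623), a secreted serpin that inhibits no protease and limits vessel growth. It stood at 430.4, 324 and 379 CPM with TAA alone, 626, 598 and 534 at 2 weeks, and 484, 552 and 458 at 5 weeks. Both treated groups lay wholly above TAA. It rose by 0.63 ± 0.14 on the log2 scale at 2 weeks (edgeR adjusted p = 0.0415), and the 5-week value was 0.40 ± 0.14 (adjusted p = 0.159). Scaling by library totals gave 0.30 at 2 weeks, with no call.

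Serpinc1 encodes antithrombin (chr1:160978606-161003014), the plasma inhibitor of thrombin and factor Xa. It was among the tightest members, at 1645, 1574 and 1578 CPM with TAA alone, 2369.9, 2278 and 2275 at 2 weeks, and 2021, 2087 and 1889.7 at 5 weeks. The 3 groups did not overlap, and the 5-week libraries lay between the others. It rose by 0.53 ± 0.10 at 2 weeks on the log2 scale (edgeR adjusted p = 0.0319), and the 5-week value was 0.32 ± 0.10 (adjusted p = 0.135). On library totals the 2-week change was 0.20, with no call, because that scaling moved the median of all genes from -0.03 to -0.36. Both Serpinc1 and Serpinf1 lost their call without any 1 of the TAA or 2-week libraries, or without library 28; the log2 changes were then 0.50 to 0.54 and 0.51 to 0.72.

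Serpina10, Serpind1, Serpinf2 and Serpina5, which also act on proteases of coagulation and fibrinolysis, were not called by edgeR in any comparison. Serpina10, which inhibits factor Xa with protein Z, stood at 204, 162 and 166 CPM with TAA alone and 248, 226 and 200.2 at 2 weeks, and its 5-week libraries at 159, 169.7 and 169 lay wholly below the 2-week ones. Its 2-week change was 0.34 ± 0.13 (edgeR adjusted p = 0.154). Heparin cofactor II, Serpind1, stood at 556, 528 and 460.4 CPM, then 479, 484 and 546, then 651, 585 and 504, with all groups overlapping. The plasmin inhibitor Serpinf2 stayed within 581 and 740.1 CPM over 9 libraries, a 1.27-fold range.

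Serpina5, protein C inhibitor, was near the floor of detection at 0.894, 1.10 and 0.755 CPM with TAA alone, 0.496, 0.557 and 0.0913 at 2 weeks, and 1.62, 0.773 and 0.837 at 5 weeks. The 2-week libraries lay wholly below both other groups, with log2 changes of -1.25 ± 0.56 against TAA (edgeR adjusted p = 0.214) and 1.48 ± 0.56 from 2 to 5 weeks (adjusted p = 0.183). Among the 11 coagulation and contact proteases, 1 rose at 2 weeks, beside 1.98% of all genes, and none passed the test at 5 weeks. Unadjusted, 6 had p under 0.05 by edgeR at 2 weeks and 6 at 5 weeks, beside 23.4% and 19.2% of all genes. The gene that rose at 2 weeks was F12, the contact factor XII. F12 stood at 348 to 373 CPM with TAA alone and 584 to 622 at 2 weeks (log2 change 0.73 ± 0.11, edgeR adjusted p = 0.0240).

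Serping1, the C1 inhibitor that restrains complement and plasma kallikrein, stood at 737, 519 and 649 CPM with TAA alone, 1031, 975 and 767 at 2 weeks, and 747, 859 and 633 at 5 weeks. Its 2-week libraries lay wholly above TAA, with a log2 change of 0.54 ± 0.18 that did not pass the test (edgeR adjusted p = 0.11). None of the 6 complement proteases on its list was called by edgeR at either time. An unadjusted p under 0.05 was found for 0 at 2 weeks and 4 at 5 weeks, beside 23.4% and 19.2% of all genes.

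Serpina7 encodes thyroxine-binding globulin (chrX:139079250-139085236), a thyroid hormone carrier. It gave the largest change of the members described. With TAA alone it was even, at 10.8, 9.40 and 11.6 CPM. At 2 weeks it reached 98.9, 23.6 and 40.9 CPM, and at 5 weeks 21.7, 39.2 and 35.7. All 6 treated libraries exceeded the TAA libraries, but library 17 lay far above libraries 18 and 19. It rose by 2.36 ± 0.46 at 2 weeks on the log2 scale (edgeR adjusted p = 0.0327), and the 5-week value was 1.60 ± 0.45 (adjusted p = 0.101). Without library 17 the 2-week value was 1.60, and the call was lost there and without library 12, 13, 14, 18 or 28. Leaving out libraries 17, 18 and 23 together, it was the only one of the 37 called at either time.

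Serpina6 encodes corticosteroid-binding globulin, a carrier of corticosteroid hormones. It stood at 186, 101 and 98.5 CPM with TAA alone, 217, 246 and 208 at 2 weeks, and 154, 345 and 222 at 5 weeks. The 2-week libraries lay wholly above TAA and the 5-week ones did not. The log2 changes were 0.80 ± 0.31 (edgeR adjusted p = 0.162) and 0.90 ± 0.31 (adjusted p = 0.160). Of 12 listed genes of hormone carriage and response, 1 rose at 2 weeks, beside 1.98% of all genes, and none passed at 5 weeks. Unadjusted, 3 had p under 0.05 by edgeR at 2 weeks and 4 at 5 weeks, beside 23.4% and 19.2% of all genes. The gene that rose was Rbp4, the retinol carrier. Rbp4 stood at 1963 to 2239 CPM with TAA alone and 3278 to 3705 at 2 weeks (log2 change 0.72 ± 0.14, edgeR adjusted p = 0.0339).

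The antitrypsins inhibit leukocyte elastase and related proteases in plasma and tissue. At 2 weeks 4 of the 5 copies had positive log2 changes, 0.33 for Serpina1a, 0.38 for Serpina1b, 0.48 for Serpina1c and 0.52 for Serpina1d, each ± 0.18, and none was called (edgeR adjusted p from 0.123 to 0.288). All 4 changes were smaller under library totals and under FPKM. Serpina1a changed sign, at -0.01 in each, and Serpina1b was at 0.05 and 0.04. Serpina1c was at 0.15 and 0.14, and Serpina1d at 0.19 in each. Serpina1d, as an example, stood at 2639, 2198 and 2615 CPM with TAA alone, 3938, 3345 and 3403 at 2 weeks, and 2594, 3781 and 2458 at 5 weeks. Libraries 28 and 23 of the 5-week group sat at TAA levels and library 27 at 2-week levels.

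Serpina1e was the copy with the widest spread. It stood at 3322, 1673 and 2151 CPM with TAA alone, 2457, 1813 and 1312 at 2 weeks, and 4768, 2412 and 1418 at 5 weeks. No group was set apart, and the change at 2 weeks was -0.36 ± 0.42 (edgeR adjusted p = 0.624). Its part in the antitrypsin reads ranged from 5.17% to 18.5%. It was 13.9%, 8.43% and 8.97% in TAA, 7.53%, 6.36% and 5.17% at 2 weeks, and 18.5%, 7.83% and 7.17% at 5 weeks. Serpina1b, by contrast, held 25.2% to 33.4%, and its lowest share was in the same library 23 in which Serpina1e was highest.

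**Figure D4:**
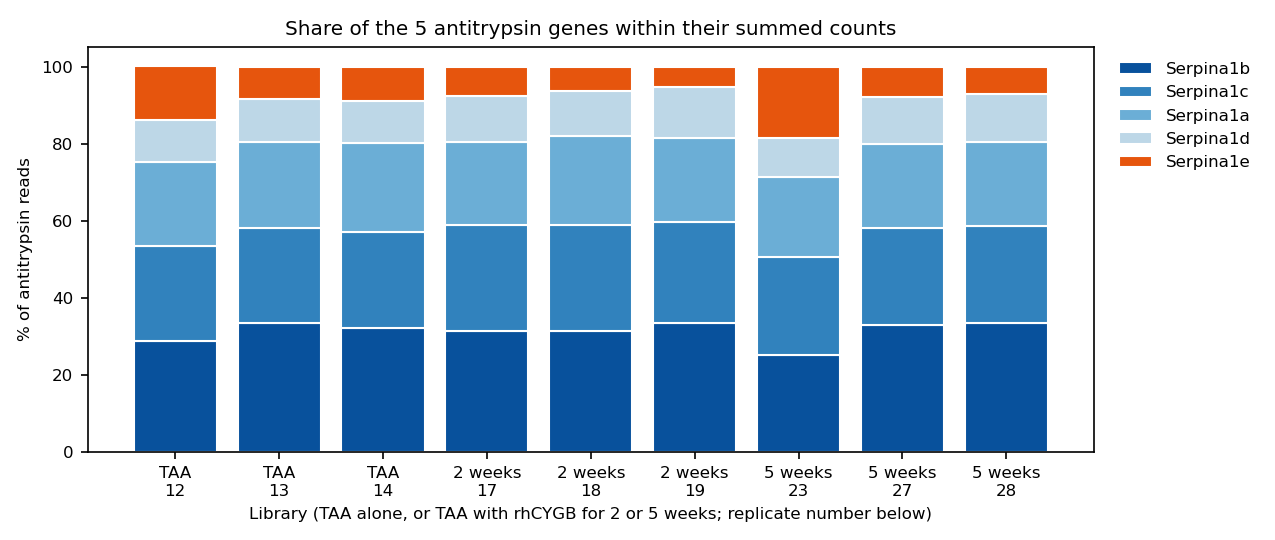
Share of each of the 5 antitrypsin genes in the summed antitrypsin counts, as stacked bars from 0 for the 9 libraries. The Serpina1e share is 18.5% in library 23 and 13.9% in library 12, and 5.17% to 8.97% in the other 7 libraries.

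The leukocyte proteases that antitrypsins and their relatives meet were sparse in these livers. Of 12 granule proteases, 7 passed the count filter. At 2 weeks 1 rose and 1 fell, beside 1.98% and 1.34% of all genes. At 5 weeks 1 fell, beside 0.604%. Unadjusted, 3 and 2 of the 7 had p under 0.05 by edgeR, beside 23.4% and 19.2% of all genes. Proteinase 3, Prtn3, fell at both times, from 8.52, 3.16 and 5.16 CPM with TAA alone to 1.61, 0.570 and 1.48 at 2 weeks (log2 change -2.21 ± 0.46, edgeR adjusted p = 0.0377) and 0.710, 0.985 and 0.563 at 5 weeks (-2.90 ± 0.47, adjusted p = 0.0361). Granzyme K, Gzmk, was called higher at 2 weeks, at 0.641, 0.798 and 0.639 CPM against 0, 0.0588 and 0 with TAA alone. The summed T and NK cell markers stood at 2.65 to 3.71 CPM with TAA alone and 8.12 to 11.7 at 2 weeks, and their part in the Gzmk value was not tested.

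Of the 9 relatives of antichymotrypsin none was called by edgeR at either time. At each time 1 had an unadjusted p under 0.05, beside 23.4% of all genes at 2 weeks and 19.2% at 5 weeks. Serpina3k, a kallikrein-binding plasma serpin and the third most abundant member per length, stood at 5909, 5481 and 5889 CPM with TAA alone, 7792, 4981 and 5308 at 2 weeks, and 9038, 6719.8 and 6195 at 5 weeks. The 5-week libraries lay wholly above TAA, with a log2 change of 0.35 ± 0.20 (edgeR adjusted p = 0.381). Serpina3n, an acute-phase serpin that inhibits granzyme B, stood at 390.4, 328 and 355 CPM, then 358, 341 and 279, then 289.8, 447 and 336, with overlapping groups. Of 22 listed acute-phase genes, 2 rose at 2 weeks and 1 at 5 weeks, beside 1.98% and 0.686% of all genes. Unadjusted, 12 and 4 of the 22 had p under 0.05 by edgeR, beside 23.4% and 19.2% of all genes. Saa3, a serum amyloid, rose at both, from 3.39 to 7.31 CPM with TAA alone to 68.3 to 443 at 2 weeks (log2 change 5.47 ± 0.82, edgeR adjusted p = 0.0240) and 46.5 to 237 at 5 weeks (4.51 ± 0.78, adjusted p = 0.0406).

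Serpina3h, a low relative, stood at 0.796, 0.867 and 0.797 CPM with TAA alone, 1.16, 0.988 and 0.657 at 2 weeks, and 0.216, 0.367 and 0.335 at 5 weeks. The 5-week libraries lay wholly below both other groups. The log2 change was -1.42 ± 0.35 against TAA (edgeR adjusted p = 0.0759) and -1.61 ± 0.35 against 2 weeks (adjusted p = 0.138). On log2(FPKM + 1) these were -0.34 and -0.29, since the added 1 outweighs a gene this low. The fall against TAA passed in 4 of 17 alternatives: library totals, DESeq2, log2(FPKM + 1) and removal of the length trend. The fall against 2 weeks passed in 2 of them.

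Serpina3g, which inhibits cysteine cathepsins in leukocytes, stood at 9.78, 8.87 and 5.77 CPM with TAA alone, 13.9, 12.1 and 11.8 at 2 weeks, and 4.66, 10.4 and 8.43 at 5 weeks. The 2-week libraries lay wholly above both other groups, with a log2 change of 0.63 ± 0.29 against TAA (edgeR adjusted p = 0.215). Serpina3f, whose deposited coordinates lie within those of Serpina3g, had the same arrangement of groups, with 0.69 ± 0.27 (edgeR adjusted p = 0.158). Of 7 cathepsins and caspases listed as partners of intracellular serpins, none was called by edgeR at either time. An unadjusted p under 0.05 was found for 2 at 2 weeks and 0 at 5 weeks, beside 23.4% and 19.2% of all genes.

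The intracellular clade B serpins guard cells against their own or incoming proteases. None of the 7 was called by edgeR. An unadjusted p under 0.05 was found for 1 at 2 weeks and 2 at 5 weeks, beside 23.4% and 19.2% of all genes. Serpinb1a, an inhibitor of neutrophil elastase, stood at 2.97, 3.03 and 4.75 CPM with TAA alone, 10.3, 6.70 and 6.99 at 2 weeks, and 3.93, 6.55 and 6.24 at 5 weeks. Its 2-week libraries lay wholly above both other groups, and the log2 change of 1.15 ± 0.28 missed the threshold (edgeR adjusted p = 0.0529). It passed in 4 of 17 alternatives: DESeq2 (adjusted p = 0.00236), only the 2 groups, and the fits without library 23 or 27. The 5-week change was 0.64 ± 0.28 (adjusted p = 0.247).

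Serpinb9, the granzyme B inhibitor, stayed at 6.80 to 8.62 CPM over all libraries, a 1.27-fold range and the narrowest of the 37 together with that of Serpinf2. Serpinb6a, which inhibits cathepsin G, stood at 49.3, 54.5 and 59.9 CPM with TAA alone, 44.3, 49.2 and 43.1 at 2 weeks, and 23.4, 55.9 and 48.1 at 5 weeks. The 2-week libraries lay just below TAA (log2 change -0.26 ± 0.26, edgeR adjusted p = 0.564). Serpinb8 and Serpinb9b lay wholly below TAA at 5 weeks, with changes of -0.59 ± 0.28 (adjusted p = 0.292) and -1.15 ± 0.48 (adjusted p = 0.233).

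Some low members ranged widely over libraries. Serpina12, the adipokine vaspin, stood at 1.85, 1.81 and 2.71 CPM with TAA alone, 7.01, 3.99 and 2.48 at 2 weeks, and 15.9, 3.48 and 2.77 at 5 weeks. Its 5-week libraries lay wholly above TAA, by a margin of 2.77 against 2.71 CPM at the closest (log2 change 1.80 ± 0.64, edgeR adjusted p = 0.172). Without library 23, the 15.9 CPM one, the change was 0.54. The transcribed pseudogene Serpina4-ps1 stood at 6.35, 6.71 and 3.43 CPM, then 5.64, 1.37 and 1.35, then 22.1, 1.82 and 12.4. All groups overlapped, and the change from 2 to 5 weeks was 2.13 ± 0.81 (adjusted p = 0.185).

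The last 8 members were not called by edgeR in any of the 3 comparisons. Serpina11, a plasma serpin of unsettled function, stood at 43.3 to 55.2 CPM with TAA alone and 57.4 to 81.3 at 2 weeks, wholly apart, with a log2 change of 0.56 ± 0.21 (edgeR adjusted p = 0.143). Groups overlapped in all 3 comparisons for Serpina3b, Serpina3c, Serpina3i, Serpina3m, Serpina9, Serpinb6b and Serpinb9f. Of these, Serpina3m was abundant, at 315 to 449 CPM, and Serpina3b and Serpinb9f were at 0 in 1 and 2 libraries.

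Most of the family sits in 1 gene cluster. On chromosome 12, 21 members lay within chr12:103616675-104414329, a span of 798 kb, and chromosome 13 held 6 members. Of the 21, 13 had a positive and 8 a negative log2 change at 2 weeks, from -1.25 for Serpina5 to 1.08 for Serpina12, and none was called by edgeR at either time, with 6 and 3 at an unadjusted p under 0.05 (23.4% and 19.2% of all genes). The 4 members called by edgeR lay elsewhere, on chromosomes 1, 3, 11 and X. At 2 weeks Serpina1c was at 0.48 ± 0.18 and the adjacent Serpina1e at -0.36 ± 0.42, and at 5 weeks they were at 0.20 and 0.27.

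**Figure D5:**
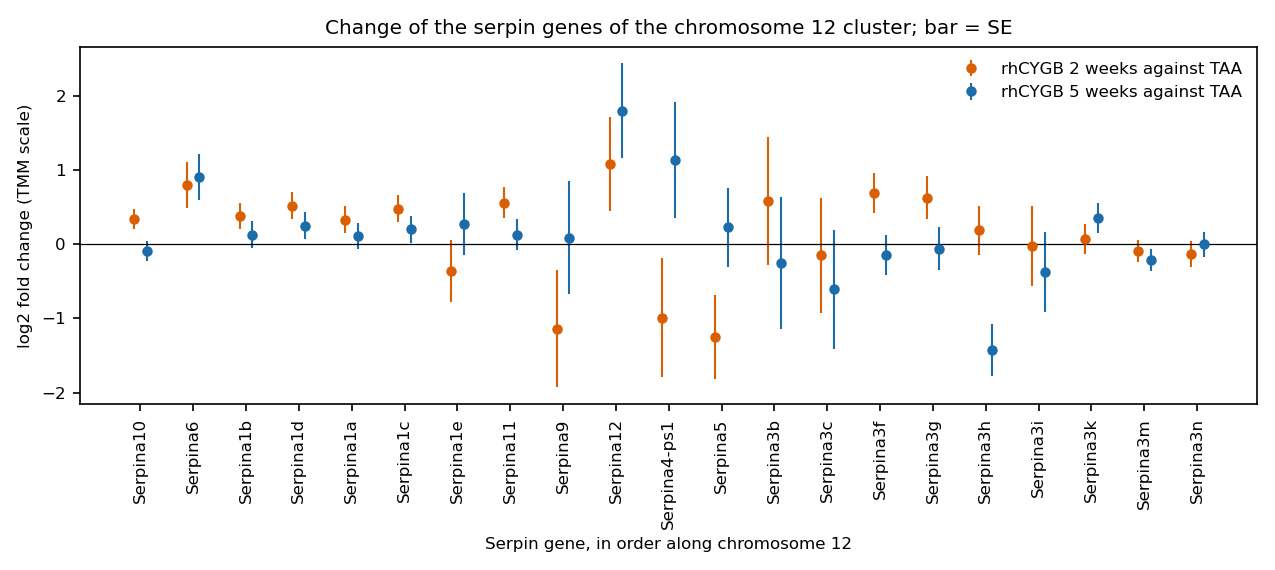
Log2 fold change with its standard error for the 21 serpin genes of the chromosome 12 cluster, in gene order, at 2 and 5 weeks against TAA. The 2-week values run from -1.25 for Serpina5 to 1.08 for Serpina12, and those of Serpina1a to Serpina1d from 0.33 to 0.52.

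Single libraries held many of the extreme values. Library 17 gave the highest of the 9 values for 15 of the 37 members, among them Serpina7, Serpinc1, Serpinf1 and 4 antitrypsins. Library 23 gave the lowest value for 13 members, among them Serpine2 and Serpinh1, and the highest for 7, among them Serpina1e and Serpina12. Such counts were not made over all genes, so they cannot show a trait of serpins apart from the libraries. On the first principal component of all genes, which held 32.3% of the variance, library 23 stood at 78.8 and libraries 17 and 18 at -39.4 and -44.1.

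Transcript length also moved with the comparison at 2 weeks. Over all genes, log2 change and length had a rank correlation of -0.42 at 2 weeks and 0.05 at 5 weeks, as a description across genes that share libraries. Serpins are short, with a median of 1918 bases beside 2721 for all genes tested. With the length trend removed, Serpina7, Serpinc1 and Serpini1 were still called at 2 weeks, beside 3.96% of all genes, and Serpinf1, at 0.43, was not.

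All 10 hepatocyte markers were tested and none was called. Their sum was 100751 to 113613 CPM with TAA alone, 110072 to 147921 at 2 weeks and 112097 to 147092 at 5 weeks. Most of it was albumin, Alb, at a mean of 97539 CPM over 9 libraries. Of the 10, 4 at 2 weeks and 5 at 5 weeks lay wholly above TAA, and none below. Over all genes 17.3% and 11.6% lay above. Of 9 pancreatic acinar markers, 5 were at 0 in every library and 2 passed the filter on low counts. The higher of these, Cela1, stood at 7.83 to 9.64 CPM with TAA alone and 10.8 to 15 at 2 weeks. At 5 weeks it stood at 7.73 to 12 CPM. Its 2-week log2 change was 0.57 ± 0.19 (edgeR adjusted p = 0.119). The summed cholangiocyte markers were 346 to 559 CPM with TAA alone, 276 to 381 at 2 weeks and 112 to 372 at 5 weeks. Most of that sum was Spp1, at a mean of 305 CPM over 9 libraries. None of the 6 tested was called. Their log2 changes ran from -1.85 for Cldn4 to 0.19 for Krt19 at 2 weeks. At 5 weeks they ran from -1.98 for Cldn4 to -0.43 for Epcam. The part of these cell types in the serpin values was not tested.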

How the data were processed

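Libraries were poly(A) RNA prepared with a stranded kit and sequenced at both ends, per the labels' protocols. The authors used FastQC 0.11.7, HISAT2 2.1.0 and StringTie 1.3.4d on mm10, per the submitters' processing notes. The deposited table gives an estimated count and FPKM per gene, and FPKM per transcript, per the file headers; how StringTie output became counts is not given in the sources used here. Counts were whole numbers. From them, edgeR 4.0.16 in R 4.3.3 fitted the 3 groups of 3 libraries in 1 model (filterByExpr, minimum count 10; TMM scaling; quasi-likelihood test; Benjamini-Hochberg over 14731 genes), with 6 residual degrees of freedom and a common biological coefficient of variation of 24.9%. CPM are TMM-scaled. Alternatives were library totals, upper quartile scaling, DESeq2 1.42.0, no filter, log2(FPKM + 1) with limma 3.58.1, only the 2 groups compared, removal of the length trend, and leaving out each library. The test was checked on simulated data. Of the genes that met the rule, 1 is not reported here, and counts of members are over the other 37. The members and lists were chosen with earlier results of these data known. Values in every library are given for called members, for those of largest change whose groups lay apart, and for plasma, matrix and intracellular serpins of known role; genes of other lists are the called ones or the most abundant. No 2 libraries had the same counts at more than 1.23% of genes. Gene coordinates are those of the deposited transcripts on mm10.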

Additional observations from a re-analysis of the deposited data

How the results depend on the processing

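No paired analysis was possible because the groups share no replicate numbers. Of the 37 serpins described, 25 kept the sign of their log2 change under all 17 alternatives at 2 weeks, 20 at 5 weeks and 22 between the treated groups. Serpina1a at 2 weeks turned to -0.01 under library totals and under log2(FPKM + 1).

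At 2 weeks, 4 of them were called in the fit reported, 0 to 6 when 1 library was left out, and 1 without libraries 17, 18 and 23 together, a setting chosen after seeing the data. All genes called there, 488, became 1722 with library totals (6.39% of them higher, against 59.6%), 1713 with DESeq2, 1983 with FPKM (7.31% higher), 1023 with only the 2 groups, 12 without the 3 libraries, and 1 to 1095 when 1 was left out. At 5 weeks the 0 called became 2 with library totals, 6 with DESeq2, 3 with FPKM, 2 with the length trend removed, 1 without the 3 libraries, and stayed at 0 when any 1 library was left out. All genes called, 190, became 504 with library totals, 77 with upper quartile scaling, 1188 with DESeq2, 105 with no filter, 1001 with FPKM, 1 with only the 2 groups, 536 with the length trend removed, 7 without the 3 libraries, and 0 to 240 when 1 was left out. Between the treated groups the 0 called became 1 with DESeq2 and 0 to 4 when 1 library was left out; the 4, without library 27, were Serpina1b, Serpina1d, Serpina3h and Serpina4-ps1. All genes called, 3, became 788 with DESeq2, 5 with FPKM, 0 with only the 2 groups, 7 with the length trend removed, 5 without the 3 libraries, and 1 to 1889 when 1 was left out. With fewer libraries a group can hold 2 samples or 1, whose spread is taken from the others; other causes were not tested. FPKM calls at 2 weeks included lower values of Serpina3m (-0.42) and Serpina3n (-0.47). Serpina3b, Serpinb9f and Serpina3c, with mean counts of 11.6 to 13.1, had standard errors of 0.78 to 1.27 on the log2 scale, against 0.10 for Serpinc1, so the depth limits what can be said of them.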

Other observations

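Angiotensinogen, Agt, is a serpin by structure whose symbol lies outside the naming rule. It stood at 606, 457 and 539.7 CPM with TAA alone, 993, 925 and 706 at 2 weeks, and 520.1, 785 and 528 at 5 weeks. The 2-week libraries lay wholly above TAA, with a log2 change of 0.71 ± 0.20 that did not pass edgeR's quasi-likelihood test (adjusted p = 0.0765), and the 5-week libraries overlapped TAA. Of 15 plasma protease inhibitors outside the serpin family, 14 were tested and none was called by edgeR at 2 or 5 weeks. An unadjusted p under 0.05 was found for 5 and 2 of them, beside 23.4% and 19.2% of all genes. Their median log2 changes were 0.30 and 0.17.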
